A study of Mus musculus with 2 samples.

Results

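Firre is a long noncoding RNA gene of the X chromosome, and 480 of the 110003 transcripts in the deposited list lay on its locus. They were taken as the minus-strand transcripts that overlap chrX:47908855-47988498 in the mm9 genome build, an interval of 79644 bp. The members were chosen by their deposited position and strand, and the locus itself was selected on its number of transcripts and BROAD names, so these totals are a description. The interval runs from the lowest start to the highest end of the 480, so all of them necessarily lie wholly inside it. No pair of them had the same set of blocks. The label was checked by structure against the mouse GENCODE annotation (release M21). Of the 35 annotated introns of Firre, 32 (91.4%) were found, by matching runs of intron, exon and intron lengths on the same chromosome and strand. A single difference in position between the builds held for every matched intron.

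Firre RNA stays in the nucleus near its own gene, and it is known for a repeated RNA element that binds the nuclear matrix protein hnRNPU. The gene escapes X inactivation, and its RNA and its locus are linked to contacts between chromosomes and to the position of the inactive X. It is well expressed in mouse embryonic stem cells and is spliced into many forms that hold different numbers of the repeat.

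The cells were the mouse embryonic stem cell line V6.5, which is pluripotent and was cultured over a feeder layer of irradiated mouse embryonic fibroblasts. There was 1 library of polyadenylated RNA and 1 library of RNA depleted of ribosomal RNA. The deposited list pools transcripts without naming a library, and none of its values is stated to be a read count. No transcript therefore has a known depth, and the libraries could not be compared. The transcripts are lines of 1 list that share exons, and are not replicates. No error between cultures can be given, and the Wilson 95% intervals below cover counting error only. The share of RNA that came from the feeder fibroblasts was not tested.

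The repeat that gives Firre its name was directly visible in the exons. A set of 12 internal exons, numbered R1 to R12 from the 5′ end, had lengths of 155 nt (R1, R3 to R7 and R12), 154 nt (R8 to R11) or 146 nt (R2). For 10 of them the sequence could be read from annotated GENCODE M21 transcripts with the same run of lengths (GRCm38 build, minus strand). No sequence was matched for R3 or for the whole of R4, which are counted by their length of 155 nt. An 87-nt form of R4 was matched, and it was 96.6% identical to the start of R1. The copies below show the reference copy, the shortest one, and copies from the 155-nt and 154-nt classes. They are written 5′ to 3′ in the sense of the RNA, with capitals where a copy differs from R1 in a global alignment. Bases that are missing from a copy are not marked.
R1: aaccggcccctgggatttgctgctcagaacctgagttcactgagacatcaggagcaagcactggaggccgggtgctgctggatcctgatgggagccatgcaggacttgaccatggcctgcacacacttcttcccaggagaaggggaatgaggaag
R2: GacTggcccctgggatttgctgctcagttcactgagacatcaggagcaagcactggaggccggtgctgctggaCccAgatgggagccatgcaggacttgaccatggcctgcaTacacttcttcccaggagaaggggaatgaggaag
R7: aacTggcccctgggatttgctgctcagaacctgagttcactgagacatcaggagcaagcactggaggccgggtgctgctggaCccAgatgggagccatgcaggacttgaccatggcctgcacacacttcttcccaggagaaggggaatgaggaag
R8: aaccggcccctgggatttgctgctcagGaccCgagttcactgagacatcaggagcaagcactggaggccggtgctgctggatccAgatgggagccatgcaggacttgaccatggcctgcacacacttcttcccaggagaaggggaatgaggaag
R10: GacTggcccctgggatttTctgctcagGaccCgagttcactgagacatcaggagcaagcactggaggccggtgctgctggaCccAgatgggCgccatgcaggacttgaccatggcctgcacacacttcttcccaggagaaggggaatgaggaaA
R11: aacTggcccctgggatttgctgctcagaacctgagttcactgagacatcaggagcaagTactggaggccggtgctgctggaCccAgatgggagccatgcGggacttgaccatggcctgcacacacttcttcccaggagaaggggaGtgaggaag
In GRCm38 these exons lie at chrX:50615361-50615515 (R1), chrX:50612705-50612850 (R2), chrX:50595461-50595615 (R7), chrX:50581403-50581556 (R8), chrX:50570138-50570291 (R10) and chrX:50567540-50567693 (R11). R10 was read from part of a longer annotated exon, and the other 5 from whole ones.

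The 10 copies with a sequence were near-identical over their whole length. Likeness was in part a condition of entry: a copy needed 140 to 170 nt and at least 80% identity with R1. Shorter or longer copies were not sought. The 45 pairs of the 10 copies had identities from 91.0% to 98.7%, with a median of 96.1%. R2 and R1 were the least alike, with 5 mismatches and 9 gap columns, and R5 and R7 were among the most alike, with 2 mismatches. R7 differed from R1 by 3 mismatches. R8 had 3 mismatches and 1 missing base against R1, which gives its 154 nt. R10 was further from R1, at 93.5% with 9 mismatches. A run of 24 bases was the same in all 10 copies, at positions 123 to 146 of R1 counted from its 5′ end.
Shared run: acacttcttcccaggagaagggga
Among 141767 annotated mouse transcripts, this run occurred in 5 (0.00353%), all of them Firre transcripts, and its reverse complement occurred in 0. The annotated transcript Firre-206 holds it 10 times in 5555 nt, Firre-208 holds it 5 times, and 5 of the 10 annotated Firre transcripts hold none. This run was itself taken from annotated Firre exons, and no other run of 24 bases was searched for comparison. How unusual its restriction to Firre is was therefore not tested.

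**Figure D1:**
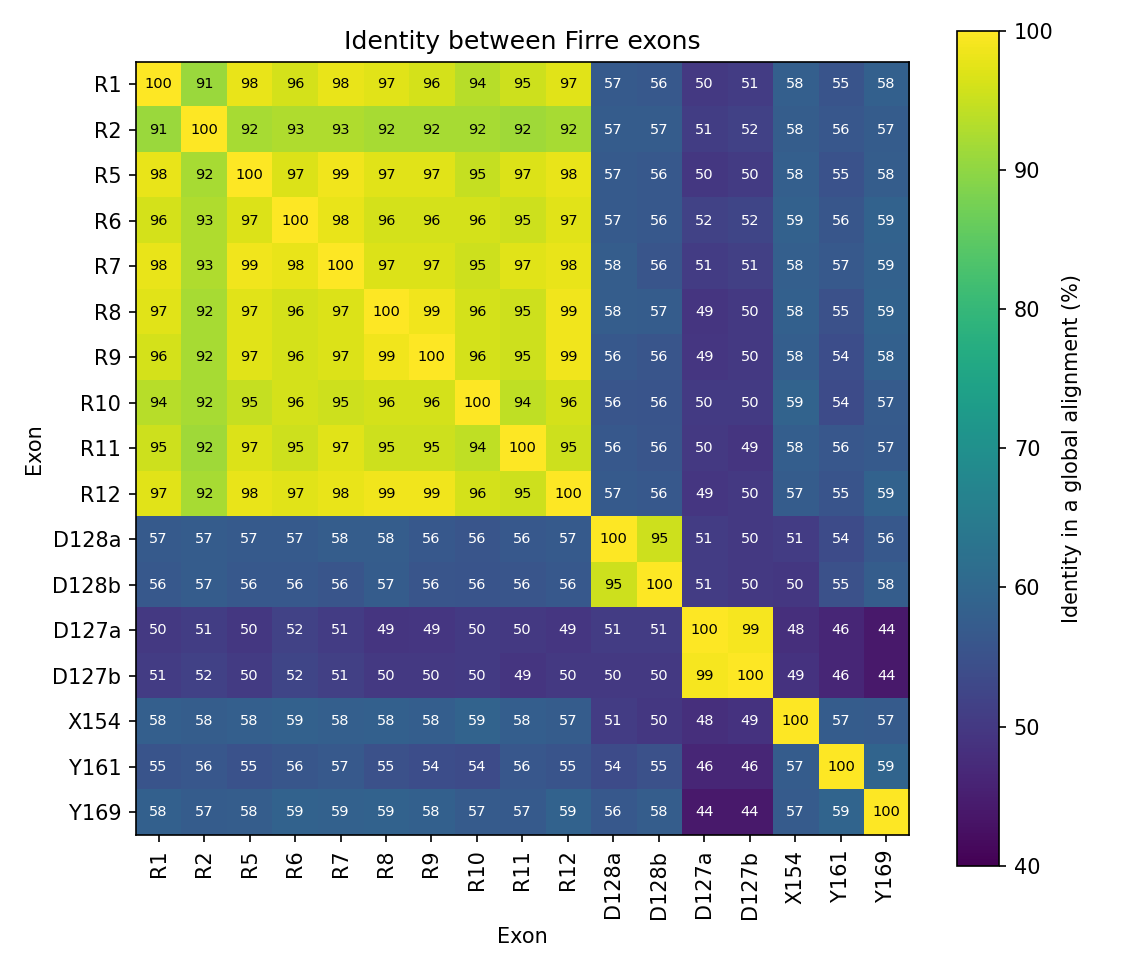
Identity (%) in a global alignment between each pair of Firre exons, with rows and columns in the same order and colour from 40 to 100%. The 10 repeat exons with a sequence form a block of 91.0 to 98.7%, and the upstream and downstream copies of a duplicated pair of exons (D128a with D128b, D127a with D127b) form 2 small blocks at 95.3% and 99.2%.

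Equal length was not by itself a sign of equal sequence. The 154-nt internal exon near the 3′ end of the locus, called X154 here (chrX:47911408-47911561 in mm9), has the length of R8 to R11 and was held by 17 transcripts.
X154: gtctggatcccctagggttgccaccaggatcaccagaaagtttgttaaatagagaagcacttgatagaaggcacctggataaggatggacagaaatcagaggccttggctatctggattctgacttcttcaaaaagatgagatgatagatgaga
It was 57.8 to 59.0% identical to the 154-nt repeat exons, which were 94.2 to 98.7% identical to each other. Pairs among 7 Firre exons outside the repeat, X154 among them, had identities from 44.2 to 59.3% with a median of 50%, leaving out the duplicated pairs. No pair among the 3 exons of 137 nt had a matched sequence on both sides.

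The locus held 47 distinct internal exons with 31 distinct lengths. Of these, 23 (48.9%, Wilson 95% interval 35.3 to 62.8%) shared their exact length with an internal exon elsewhere in the locus. The groups of at least 3 were 7 exons of 155 nt, 5 of 154 nt and 3 of 137 nt. Lengths of 87, 127, 128 and 130 nt occurred 2 times each. When overlapping exons were reduced to the form held by most transcripts, 15 of 30 had a repeated length. Among the 64 loci of the list with at least 20 internal exons the median share was 19.6%, and Firre ranked 16th. Higher shares stood at Gm7398 on the X chromosome (30 of 30 exons), at an unnamed X locus (21 of 22) and at Gm11639 on chromosome 11 (120 of 139). Among the 11 loci with 40 to 60 internal exons, nearer to Firre in exon number, the median share was 27.9%. Their shares ran from 5 to 80%, and Firre ranked 3rd.

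Most repeat exons followed each other at similar distances. Of the 11 distances from one repeat exon to the next, 7 were between 2598 and 2726 bp. The other distances were 6688 bp from R2 to R3, 14059 bp from R7 to R8, 3532 bp from R8 to R9 and 7733 bp from R9 to R10.

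**Figure D2:**
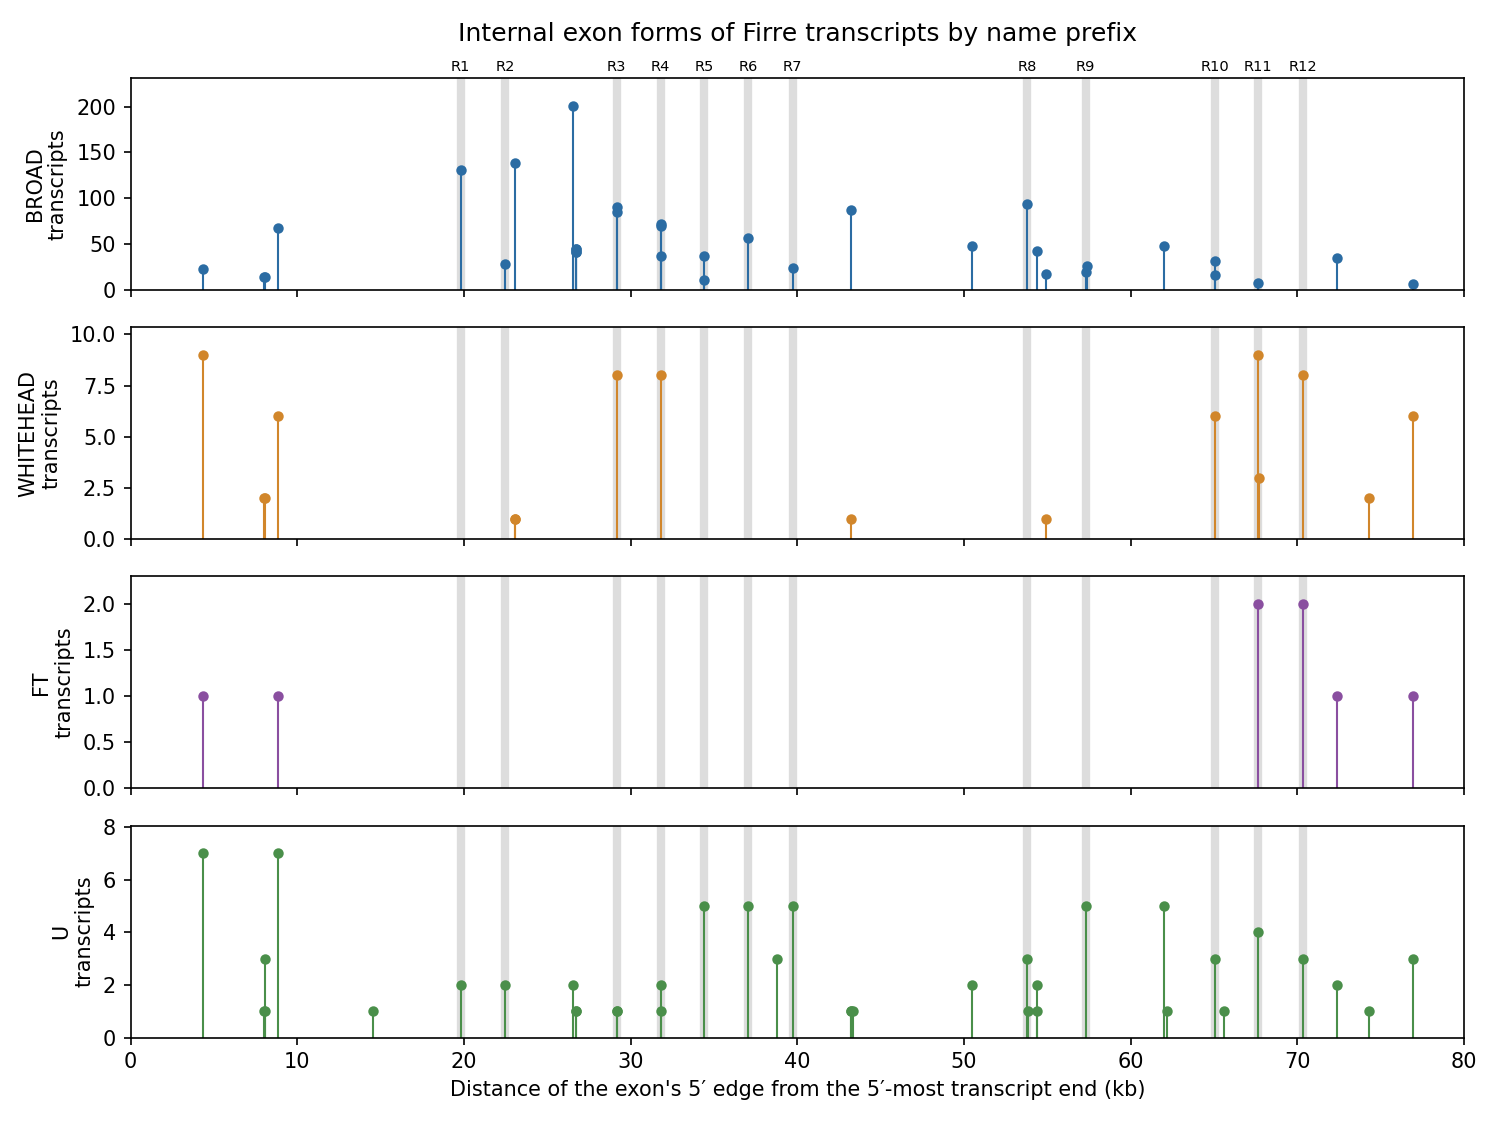
Number of transcripts (y axis, a separate scale for each name prefix) that hold each internal exon form, against the distance of its 5′ edge from the 5′-most transcript end in kb. Grey bands mark the repeat exons R1 to R12. As internal exons with both exact edges, BROAD transcripts hold all of them except R12, and WHITEHEAD transcripts hold R11 and R12 only.

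Transcripts held few of the repeats at a time. An exon that overlaps at least 1 repeat exon, first and last exons included, was present in 439 of the 472 multi-exon transcripts. They held a median of 2, up to 6 under BROAD names, 3 under WHITEHEAD and 11 under U. Of the 414 BROAD transcripts, 15 held none, 45 held 1 and 354 held 2 or more. The prefixes BROAD, WHITEHEAD, FT and U are parts of the transcript names, and the sources used here do not give their meaning.

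The repeat exons differed widely in use. R1 was a whole internal exon of 133 transcripts, 131 of them BROAD, and an exon overlapping it was present in 136 (97.1%) of the 140 multi-exon transcripts that begin upstream of its 5′ edge and end downstream of its 3′ edge. These overlapping exons include first and last exons, also below. R7 was present in 29 of 306 (9.48%), R2 in 34 of 172 (19.8%) and R6 in 62 of 306 (20.3%). All shares of this kind pool the prefixes, and most of the transcripts are BROAD. As a whole internal exon, R7 was in 24 of all 414 BROAD transcripts and in 5 of all 18 U transcripts. R6 was one in 57 BROAD and 5 U transcripts. R3 was present in some form in 186 of 293 (63.5%) and R4 in 190 of 315 (60.3%). R12 was a whole internal exon of 13 transcripts, 8 WHITEHEAD, 2 FT and 3 U, and of 0 BROAD ones. R10, by contrast, was a whole internal exon of 32 BROAD transcripts and of no other prefix. These counts need both exact edges. A longer internal exon of 1015 nt that contains R10 was in 16 BROAD, 6 WHITEHEAD and 3 U transcripts. A last exon of 1946 nt that contains R12 was in 15 BROAD transcripts.

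**Figure D3:**
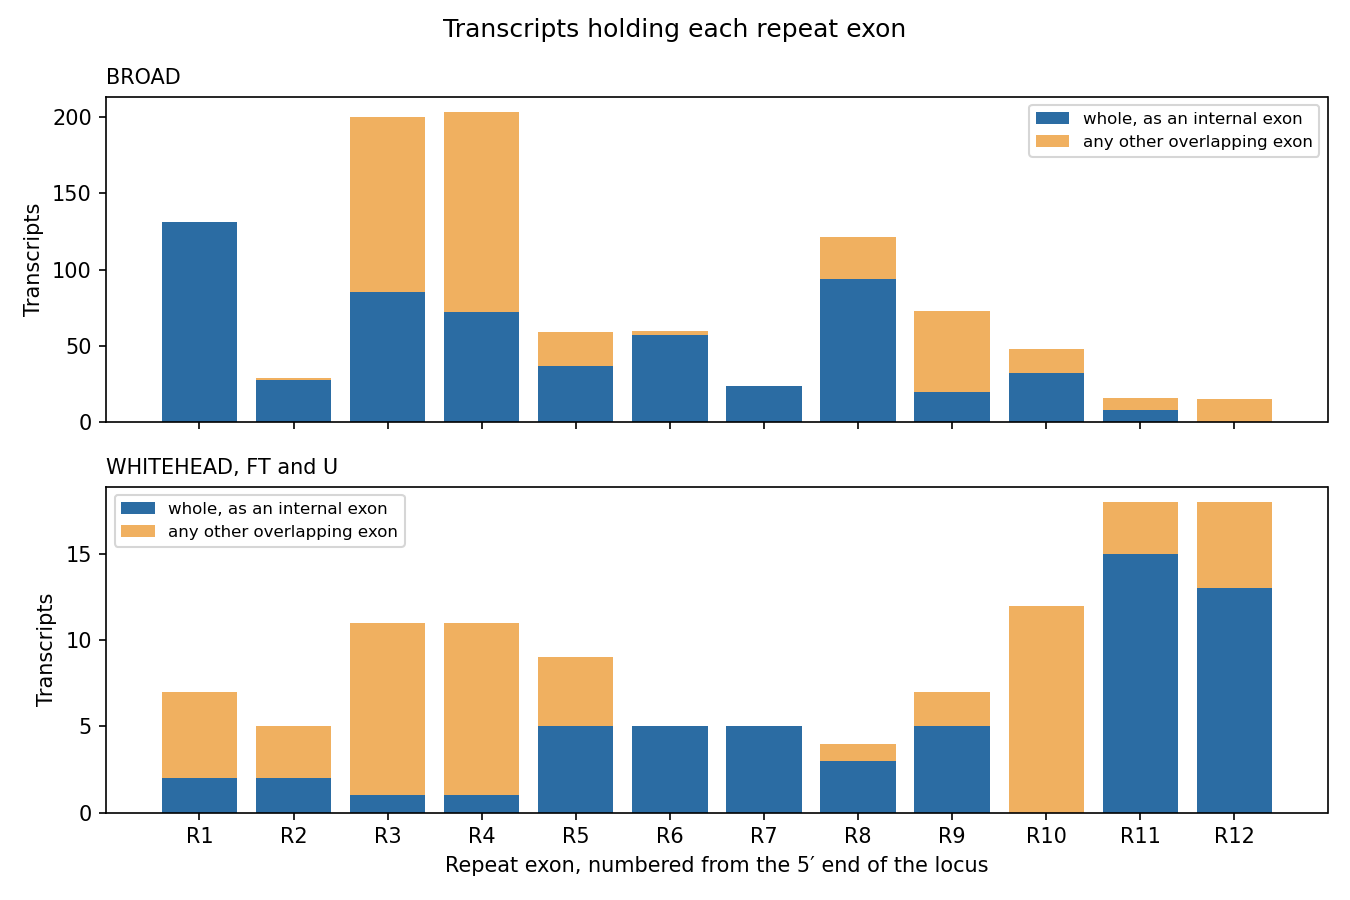
Number of transcripts that hold each repeat exon, as a whole internal exon (blue) or in any other overlapping exon (orange: shortened, lengthened or terminal), for BROAD names (top) and for the other 3 prefixes together (bottom). R1, R3, R4 and R8 stand highest in the BROAD panel, and R11 and R12 in the lower one.

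R3 and R4 each had a short form that used another splice donor. The 87-nt form of R3 was in 100 transcripts (91 BROAD, 8 WHITEHEAD, 1 U) and the whole exon in 86 (85 BROAD, 1 U). The 87-nt form of R4 was in 80 transcripts (70 BROAD, 8 WHITEHEAD, 2 U) and the whole exon in 73 (72 BROAD, 1 U). All 8 WHITEHEAD transcripts with an internal R3 form had the short one, and the same count held for R4. Another form of R4, of 46 nt, was in 37 BROAD transcripts. The sequence of the 87-nt form of R4 stops before the shared run of 24 bases, with 3 mismatches to R1 in capitals.
R4 short form: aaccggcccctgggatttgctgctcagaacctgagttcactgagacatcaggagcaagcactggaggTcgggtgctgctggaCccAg

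Of the 66 pairs of repeat exons, 13 were joined directly by an intron, 8 as neighbours and 5 with skipping. Any exon that overlaps a repeat exon counted as that repeat exon here. The R3 to R4 join was in 168 transcripts, R4 to R5 in 65, R10 to R11 in 26 and R11 to R12 in 26. The R10 to R11 intron of 1583 bp left from longer exons that overlap R10. These were a 1015-nt internal exon in 25 transcripts and a 923-nt FT first exon in 1. The 154-nt form of R10 was not joined to R11, and its intron of 7183 bp passed over 2 repeat exons. The skipping joins were R4 to R9 in 37 transcripts, R4 to R6 in 35, R3 to R8 in 18, R1 to R11 in 3 and R3 to R5 in 1. The R4 to R9 intron of 25501 bp kept the first 46 nt of R4 and the last 108 nt of R9. The 2 pieces add up to 154 nt, the length of a single repeat exon. This held for none of the other skipping joins, which kept 310 nt (R4 to R6), 309 nt (R3 to R8), 180 nt (R1 to R11) and 310 nt (R3 to R5). All 37 transcripts with this join were BROAD. Whether reads placed between near-identical copies gave rise to any of these joins was not tested.

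A different unit of the locus was present in 2 copies. The upstream copy (chrX:47961655-47961991 in mm9) and the downstream copy (chrX:47926192-47926528) lay 35463 bp apart, and each consisted of a 128-nt exon, an 82-bp intron and a 127-nt exon. The 4 exons are shown as D128a and D127a for the upstream copy and D128b and D127b for the downstream one, with capitals where the second copy differs from the first in an alignment.
D128a: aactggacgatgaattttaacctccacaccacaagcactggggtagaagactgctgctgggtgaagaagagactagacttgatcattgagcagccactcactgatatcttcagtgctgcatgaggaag
D128b: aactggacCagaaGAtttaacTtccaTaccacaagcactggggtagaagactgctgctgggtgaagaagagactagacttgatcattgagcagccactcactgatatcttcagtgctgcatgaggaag
D127a: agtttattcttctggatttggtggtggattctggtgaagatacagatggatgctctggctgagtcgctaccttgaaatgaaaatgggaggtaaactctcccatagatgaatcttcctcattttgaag
D127b: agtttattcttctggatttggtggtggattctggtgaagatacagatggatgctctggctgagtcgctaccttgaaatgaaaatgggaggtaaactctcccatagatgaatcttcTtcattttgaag
The 128-nt exons were 95.3% identical, with 4 mismatches and 2 gap columns, and the 127-nt exons 99.2%, with 1 mismatch. Upstream, D128a was an internal exon of 203 transcripts (201 BROAD, 2 U), more than any other internal exon of the locus. D128b was one in 53 (48 BROAD, 5 U).

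Both copies had the same small variation at their splice sites. The intron after the 128-nt exon was 82 or 79 bp long in each copy, from acceptors 3 nt apart. In the upstream copy each version was in 90 transcripts, 89 BROAD and 1 U. In the downstream copy they were in 1 and 2 transcripts, all U. The donor after the second exon also had 2 positions, which gave introns of 2315 and 2308 bp upstream and of 2723 and 2716 bp downstream. With both choices the upstream second exon took 4 forms, of 134, 137, 127 and 130 nt, in 43, 42, 45 and 46 transcripts.

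BROAD transcripts also joined the copies to each other. Introns of 35545 and 35542 bp, each in 6 BROAD transcripts, ran from D128a to the 2 acceptors of the downstream second exon. Each is longer than the local intron (82 or 79 bp) by the 35463 bp between the copies. No transcript of another prefix held either of them.

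The 472 multi-exon transcripts held 97 distinct introns of 50 to 58743 bp, with a median of 2723 bp. Of these, 18 were in 1 transcript, and 61 were in transcripts of 1 prefix, 18 of 2, 12 of 3 and 6 of all 4. The most used intron, chrX:47965419-47968537 of 3119 bp, followed R1 and was in 131 transcripts (27.8%), all BROAD. The next were 842 bp (chrX:47961992-47962833, 120 transcripts, all BROAD) and 2550 bp between R3 and R4 (chrX:47956703-47959252, 100 transcripts, 91 BROAD). The introns of 7077 bp (chrX:47938025-47945101), 82 bp and 79 bp were each in 90. The longest intron, of 58743 bp (chrX:47920871-47979613), was in 1 FT transcript and passed over 10 of the 12 repeat exons. A donor next to D128a joined 6 acceptors, and in all 23 of 53 donors and 24 of 49 acceptors had several partners.

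Introns that passed over a whole repeat exon were never shared between prefixes. There were 28 such introns, and 0 of them were in transcripts of 2 or more prefixes, against 36 of the 69 introns without a whole repeat exon inside. Of the BROAD introns, 20 passed over a repeat exon and 0 of them were found under another prefix (Wilson 95% interval 0 to 16.1%). For the other 39 BROAD introns the count was 31 (79.5%, 64.5 to 89.2%). The 20 were longer, with a median of 14713.5 bp against 2314 bp. Among BROAD introns under 10000 bp, 0 of 6 that passed over a repeat exon were shared, against 30 of 38 that did not. The 20 introns were not rare among BROAD names: they were in 6 to 131 transcripts each, and 359 of the 414 BROAD transcripts held at least 1. None of them had the length of an annotated Firre intron, whereas 19 of the other 39 did. The 8 introns of this kind in the other prefixes were in 1 to 3 transcripts each. This division of the introns was chosen after their values were seen.

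Over all BROAD introns, 31 of 59 (52.5%, Wilson 95% interval from 40.04% to 64.7%) were at identical positions under another prefix. Of the 39 WHITEHEAD introns 28 (71.8%) were, and of the 9 FT introns 8 (88.9%). BROAD and WHITEHEAD shared 24, and BROAD and U shared 24.

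Isoforms were counted as chains of introns, and there were 360, of which 148 were a contiguous part of a longer chain. The BROAD names held 306 chains in 414 transcripts. Of these chains, 100 were listed more than 1 time, and in all 100 the listed transcripts differed only at the 3′ end. Only 4 chains were found under 2 or more prefixes. The BROAD transcripts drew on 70 exon forms and 108 joins between them. Following every join from a BROAD first exon to a BROAD last exon gives 12588 possible paths, of which 414 (3.29%) were listed. For WHITEHEAD, 44 of 45 possible paths (97.8%) were listed, and for U 12 of 3679 (0.326%).

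Exon number differed by prefix. BROAD transcripts had 2 to 11 exons with a median of 6, and a median summed length of 976.5 nt. WHITEHEAD transcripts had 2 to 6 exons with a median of 4. The 4 FT transcripts had 1, 1, 5 and 7 exons. Of the 18 U transcripts, 6 had 1 exon, and the others reached 22. The transcript with most exons was U039370-4, of 22 exons and 4279 nt over 79578 bp, with 8 repeat exons. The BROAD transcript with most exons, BROAD65089, had 11 exons, 4 repeat exons and 1706 nt, and began 30148 bp downstream of the 5′-most end. WHITEHEAD88200 and WHITEHEAD91156 had 6 exons each over 17355 bp, and FT38853 had 7 exons over 79514 bp.

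Most transcripts began inside the locus. The 480 5′ ends fell into 34 groups, where ends within 50 bp of the next were 1 group. The most filled group, at 47963029, held 120 transcripts (25%), and the next ones, at 47958350 and 47960267, held 45 and 40, all BROAD. The first exon at the 5′ end of the locus began 37 (7.84%) of the multi-exon transcripts: 23 BROAD, 5 WHITEHEAD, 1 FT and 8 U. BROAD transcripts used 11 first exons only, and 6 of these spliced straight to a repeat exon: 2 to R1 and 1 each to R2, R3, R4 and R7. A pair of them, the ones before R4 and R7, were both 17 nt long and lay 2634 bp apart, close to the distance between neighbouring repeats.

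The 3′ ends were more spread, in 54 groups. The most filled ones, with ends most often at 47926340, 47937817 and 47926401, held 41, 40 and 32 transcripts. The third is the 3′ edge of D128b and the first lies just downstream of it. The 5′ edge of D128b began the last exon of 72 (17.4%) BROAD transcripts. A further 140 (33.8%) BROAD transcripts had a last exon that overlaps a repeat exon. Of the 41 BROAD last exons, 17 were identical to an internal exon, 17 had the 5′ edge of an internal exon and ran further, and 7 were neither. In all, 17 transcripts ended in the 3′-most exon, and 4 held both outer exons (1 FT, 3 U).

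**Figure D4:**
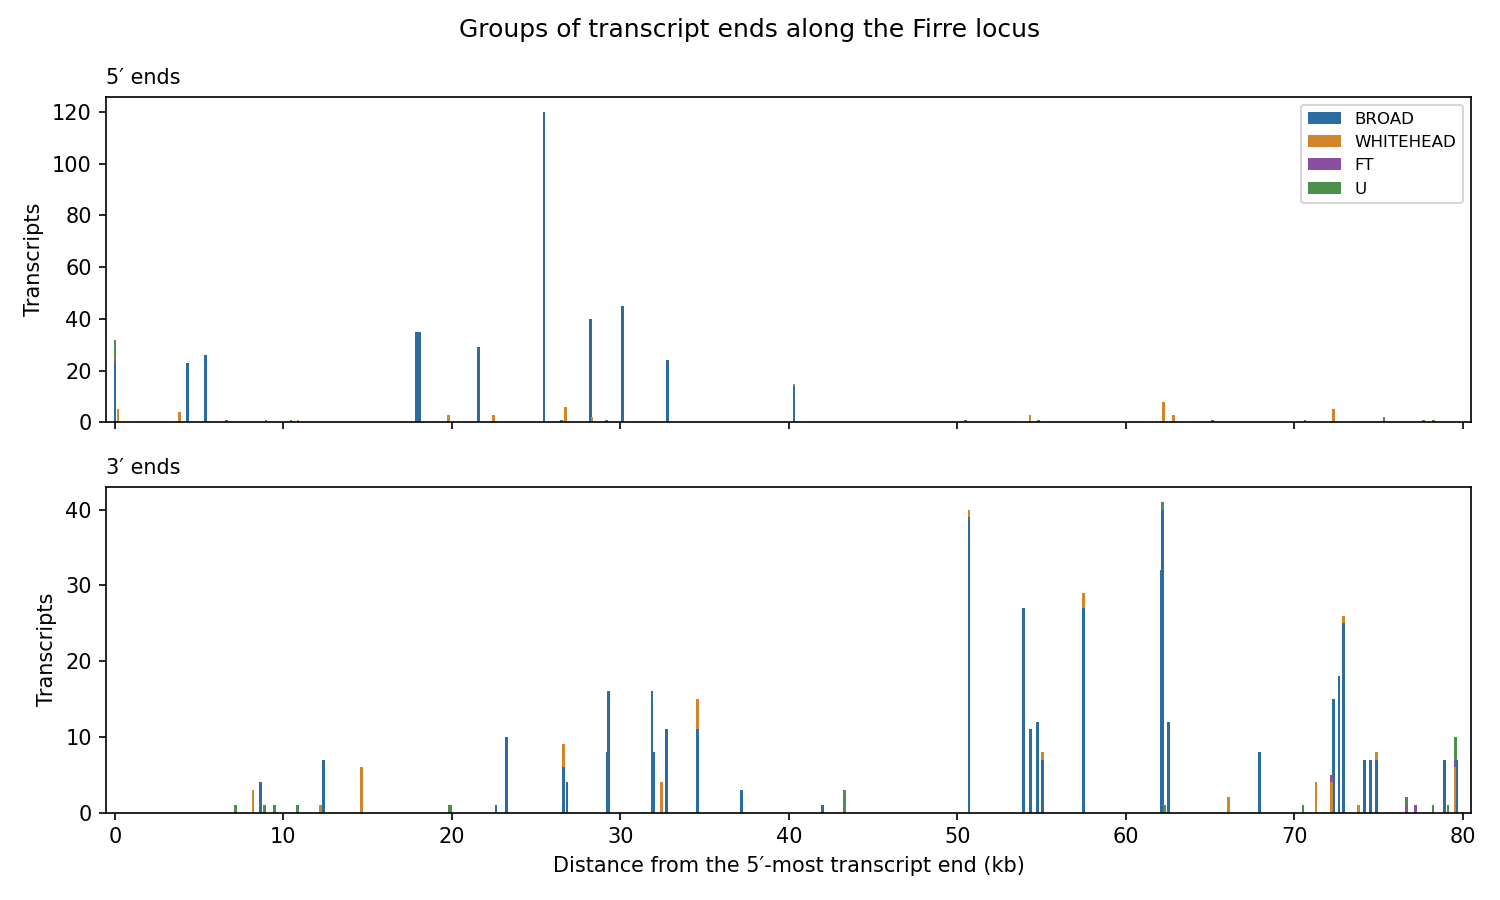
Number of transcripts in each group of 5′ ends (top) and 3′ ends (bottom), stacked by name prefix, against the distance from the 5′-most transcript end in kb. The highest 5′ bar is the BROAD group of 120 at 25.469 kb, and the highest 3′ bars, of 40 and 41, stand at 50.681 and 62.158 kb.

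The authors' deposited score had a different range for each prefix, and the sources used here do not say what it measures. At Firre it ran from 1 to 245 (median 39) for BROAD, against a median of 4 for BROAD names in the whole list, and from 2 to 187 (median 30.5) for WHITEHEAD, against 19. These medians are not for transcripts of equal exon number, and the score was a sum over introns (below). The median exon number was 6 at Firre against 2 in the whole list for BROAD, and 4 against 3 for WHITEHEAD. FT scores were 986 to 1000, and U scores were all 0. Scores are therefore not compared between prefixes.

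Every BROAD score was an exact sum over introns. With 1 fixed weight for each of the 59 BROAD introns, the sum over a transcript's introns gave the score of all 414 transcripts. The weights had 54 independent values, which left 360 scores that the weights were free to miss. Not all 360 are separate checks. Of the 306 BROAD chains, 100 were listed more than 1 time, each with 1 score throughout. A sum over exons gave only 6 of the 414 exactly, although it came close, with 99.98% of the variance of the scores. The scores fixed 42 of the weights, and all 42 came out as whole numbers, from 1 to 61 with a median of 4. Of these, 13 were 2, and 35 were even. The 44 WHITEHEAD scores were also exact sums over introns, with 14 scores to spare, but there a sum over exons was exact too. In the rest of the list sums over introns were exact for all 189 groups of BROAD transcripts and all 157 groups of WHITEHEAD transcripts that had scores to spare. Repeats of a chain counted as scores to spare there too. The median BROAD score was 5 for 2 exons (4 transcripts), 39 for 6 exons (105), 39.5 for 7 exons (150) and 214.5 for 10 exons (6). Some rise with the number of introns is built into such a sum.

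BROAD65089 shows the sum. Its score of 245 covered 10 introns, and 6 of them had fixed weights, 2, 18, 8, 14, 34 and 32 in 5′ to 3′ order, which sum to 108. The remaining 137 fell to the other 4, whose weights the list does not separate.

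Among the 42 introns with a fixed weight, those in many transcripts often had a small one. The 842-bp intron that opened 120 BROAD transcripts had a weight of 2, and so had the 2550-bp intron between R3 and R4, in 91. The 82-bp intron of the upstream unit had a weight of 2 and the 79-bp one 15, although each was in 89 BROAD transcripts. The 15 introns with a weight of 1 or 2 were in a median of 37 BROAD transcripts, and the 6 with a weight of 20 or more in a median of 10.5. The largest of the fixed weights were 61 for the 1673-bp intron (chrX:47914184-47915856, 14 BROAD transcripts), 38 for the 463-bp intron between R2 and the next exon, and 34, 32 and 31. Weights that are not fixed can be larger: that of the 8658-bp intron lies between 13 and 126, and that of the 7077-bp intron between 0 and 113. The weight of 31 belonged to the 35542-bp intron between the copies of the unit, and the 35545-bp one had 13. The R4 to R9 intron had a weight of 2.

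**Figure D5:**
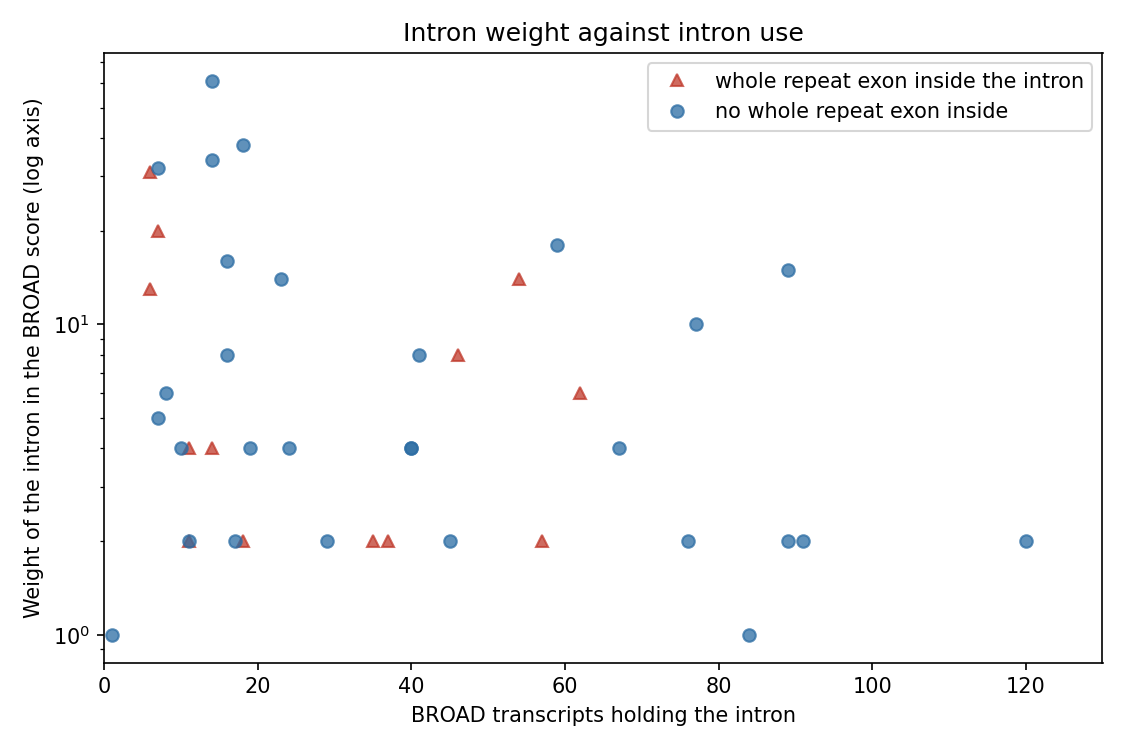
Weight of each of the 42 BROAD introns with a fixed weight (y axis, log scale) against the number of BROAD transcripts that hold it. Red triangles are introns with a whole repeat exon inside, blue circles the others, and the intron in 120 transcripts has a weight of 2 while the weight of 61 stands at 14 transcripts.

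On the other strand, 8 plus-strand transcripts overlapped the locus, 3 BROAD and 5 U, and 4 of them had more than 1 exon. U112001-1, with 3 exons, spanned 25210 bp (chrX:47890566-47915775), the span that RefSeq gives for the noncoding gene Gm35612. BROAD65501 had an intron whose edges lay 8 bp in sum from those of a minus-strand intron of the 5′ end of Firre. BROAD65085 had an exon with both edges of a minus-strand exon.

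Among all 79052 loci of the list, Firre held the most BROAD transcripts and the second most transcripts of any prefix. The locus was selected on these numbers, so both ranks follow from that choice and are a description only. Firre ranked 6th by distinct introns, 16th by internal exons and 30th by the exon number of its longest chain. The next loci by BROAD transcripts were Pvt1 on chromosome 15 (221), an unnamed locus on chromosome 13 (180) and Gm19705 on chromosome 1 (142). Of other nuclear or X-linked noncoding genes, matched by structure, 4933407K13Rik had 7 transcripts, Jpx 5, Xist 2 and Neat1 2. Tsix and Ftx had 0. This measure misses unspliced or differently spliced transcripts of all these genes, so a low count or a 0 does not show absence from the list. Firre had 160 by the same measure, fewer than the 480 of the locus because a match needs an annotated run of 2 introns and the exon between them.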

How the data were processed

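RNA of V6.5 mouse embryonic stem cells went into 2 libraries, 1 polyadenylated and 1 depleted of ribosomal RNA, per the labels. The submitters' processing notes name TopHat and mm9. The sources used here give neither the TopHat version nor how transcripts were assembled. The deposited data are 1 list in BED format with 12 columns: positions, strand, name and blocks, and a score that the authors deposited as a whole number per transcript. Depth is unknown.

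Blocks with gaps under 30 bp were joined into exons, which affected 4 FT transcripts. Ends within 50 bp of the next were grouped. Intron weights were fitted to the deposited score by least squares (numpy 2.4.6), and called fixed where the scores allow 1 value. Undetermined weights were bounded at 0 or more (scipy 1.17.1). Exons were matched to GENCODE M21 (GRCm38) by runs of intron, exon and intron lengths, and no coordinate was converted. Sequences were aligned globally with Biopython 1.88 (match 2, mismatch -1, gap opening -3, extension -1). Repeat exons with a sequence needed a length of 140 to 170 nt and an identity of at least 80% with R1. Figures used matplotlib 3.10.9. The fits were tested on simulated data.

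Members and lists were chosen with earlier results of these data known, so no test was made. The features named were every group of at least 3 internal exons of equal length, the 6 introns in most transcripts, the longest intron, the transcript with most exons per prefix and the 3 most filled groups of ends. Outside the locus they were the 3 loci with most BROAD transcripts, the 3 with the largest share of repeated lengths, and a list of noncoding genes. In that list Gm35612 has no entry in GENCODE M21, and Malat1 and Kcnq1ot1 could not be matched by structure. The alignments, the intron weights, the path counts, the duplicated unit and the division of introns by repeat exons were added after the values were seen, and so was each feature named for them.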

Additional observations from a re-analysis of the deposited data

How the results depend on the processing

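Of 43 alternatives, 35 kept a count within 1.5 times its main value or a share inside its interval, and 8 did not. Among the 35, the limit to transcripts lying wholly inside the locus interval could not change the count. Restricting to BROAD names gave 59 distinct introns, 11 groups of 5′ ends and 33 groups of 3′ ends. Leaving BROAD names out gave 58 intron chains and 30 groups of 3′ ends. The most used intron was then another one, the 2572-bp intron between R11 and R12, in 18 of 58 multi-exon transcripts (31.0%). Counting only chains that are no contiguous part of a longer one gave 212. Allowing lengths within 2 bp to count as equal raised the share of internal exons of repeated length to 66.0%. A sum over exons in place of introns was an alternative chosen after seeing the data. It gave 6 of the 414 BROAD scores exactly, and 99.98% of the variance of the scores. These changes follow from the selection or the definition itself. No paired analysis was possible because each kind of RNA had 1 library and the list does not separate them. With no value stated to be a read count, the depth behind any intron is unknown.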
